A study of Mus musculus with 6 samples.

Results

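The Hox genes encode homeodomain transcription factors that give cells their position along the head to tail axis of the embryo. They lie in 4 chromosomal clusters, HoxA to HoxD, and are numbered by paralogue group from 1 at the anterior end of a cluster to 13 at its posterior end, so that genes with the same number in different clusters are copies of one ancestral gene. The order of the genes along the chromosome matches the order of their expression along the body, low numbers anteriorly and high numbers posteriorly. Hox proteins bind DNA together with cofactors of the TALE homeodomain class, the PBX and MEIS proteins. The pancreas forms from posterior foregut endoderm and the mesenchyme around it, and Hox genes of paralogue group 6 are known to act in that mesenchyme.

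Counts of 38 Hox genes, out of 37224 genes in the table, were examined in 6 samples of whole wild-type mouse embryonic pancreas of the C57/Bl6J strain. Of these, 3 samples were taken at 13.5 days post coitum (dpc) and 3 at 15.5 dpc. No treatment or allele separated the groups, and each sample was a pool of pancreata from up to 3 embryos, so a value describes all cells of the organ and not one cell type. The genes were chosen by name: 10 members of HoxA, 10 of HoxB, 9 of HoxC and 9 of HoxD. The clusters span chr6:52162351-52260880 (HoxA), chr11:96194316-96368256 (HoxB), chr15:102921103-103036843 (HoxC) and chr2:74668310-74765143 (HoxD) in mm10, that is 98.5, 174, 116 and 96.8 kb between the outermost genes examined.

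The libraries held 12895732 to 16389237 counts at 13.5 dpc and 10546028 to 12491550 at 15.5 dpc. Pancreatic marker genes were expressed: Pdx1, a transcription factor of the pancreatic epithelium, was at 1194, 1198 and 1284 normalised counts at 13.5 dpc and at 1265, 1470 and 1347 at 15.5 dpc, and Ptf1a, needed for pancreas formation and acinar cells, rose from a mean of 630 to 2645 (log2 fold change 2.07, adjusted p = 0.00101, edgeR). Normalised counts are counts scaled to a common library size with TMM factors, which were 1.07 to 1.08 at 13.5 dpc and 0.847, 0.991 and 0.953 at 15.5 dpc. The first 15.5 dpc sample stood apart from the other two of its stage, with a summed level of 12 epithelial marker genes 1.91 times the 13.5 dpc mean (1.29 and 1.47 in the others) and of 16 mesenchymal marker genes 0.707 times (1.05 and 0.912). Several values are also given without it.

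Hox transcripts were about 0.549 times as abundant at 15.5 dpc as at 13.5 dpc. The 38 genes together took 3638, 3707 and 4199 counts at 13.5 dpc, or 282, 271 and 256 CPM (counts scaled to the library total), against 1377, 1582 and 1348 counts at 15.5 dpc, or 128, 127 and 128 CPM. Their summed normalised counts were 3170 ± 150 (SD, n = 3) at 13.5 dpc and 1740 ± 149 (SD, n = 3) at 15.5 dpc, with no overlap between the stages. In whole-organ RNA, fewer cells that express a gene and less of its RNA per cell cannot be told apart.

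Detection fell off toward the posterior end of the paralogue series. A gene was counted as detected when it had more than 3 counts in any sample, which is 0.183 to 0.284 CPM depending on the library. By this limit 24 of the 38 genes were detected: 6 of 7 in groups 1 to 3, all 15 in groups 4 to 8, and 3 of 16 in groups 9 to 13. The posterior genes over the limit were Hoxb9, Hoxd9 and Hoxd10. Hoxa11, Hoxa13, Hoxb13, Hoxc11, Hoxc12, Hoxc13, Hoxd1, Hoxd12 and Hoxd13 had 0 counts in all 6 samples, so any transcripts were under that limit at this depth. All of these except the anterior Hoxd1 belong to groups 11 to 13, whose genes pattern the limbs, tail and hindgut. The other 5 genes at or under the limit, Hoxa9, Hoxa10, Hoxc9, Hoxc10 and Hoxd11, had at most 2 counts in a sample. Groups 9 to 13 together made up 0.886% ± 0.0893 (SD, n = 3) of Hox counts at 13.5 dpc and 1.97% ± 0.196 (SD, n = 3) at 15.5 dpc. Their summed normalised counts had a mean of 28.2 (25.1 to 32.8) at 13.5 dpc and of 34.1 (33.2 to 35.3) at 15.5 dpc, so the ranges lay close to each other.

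**Figure D1:**
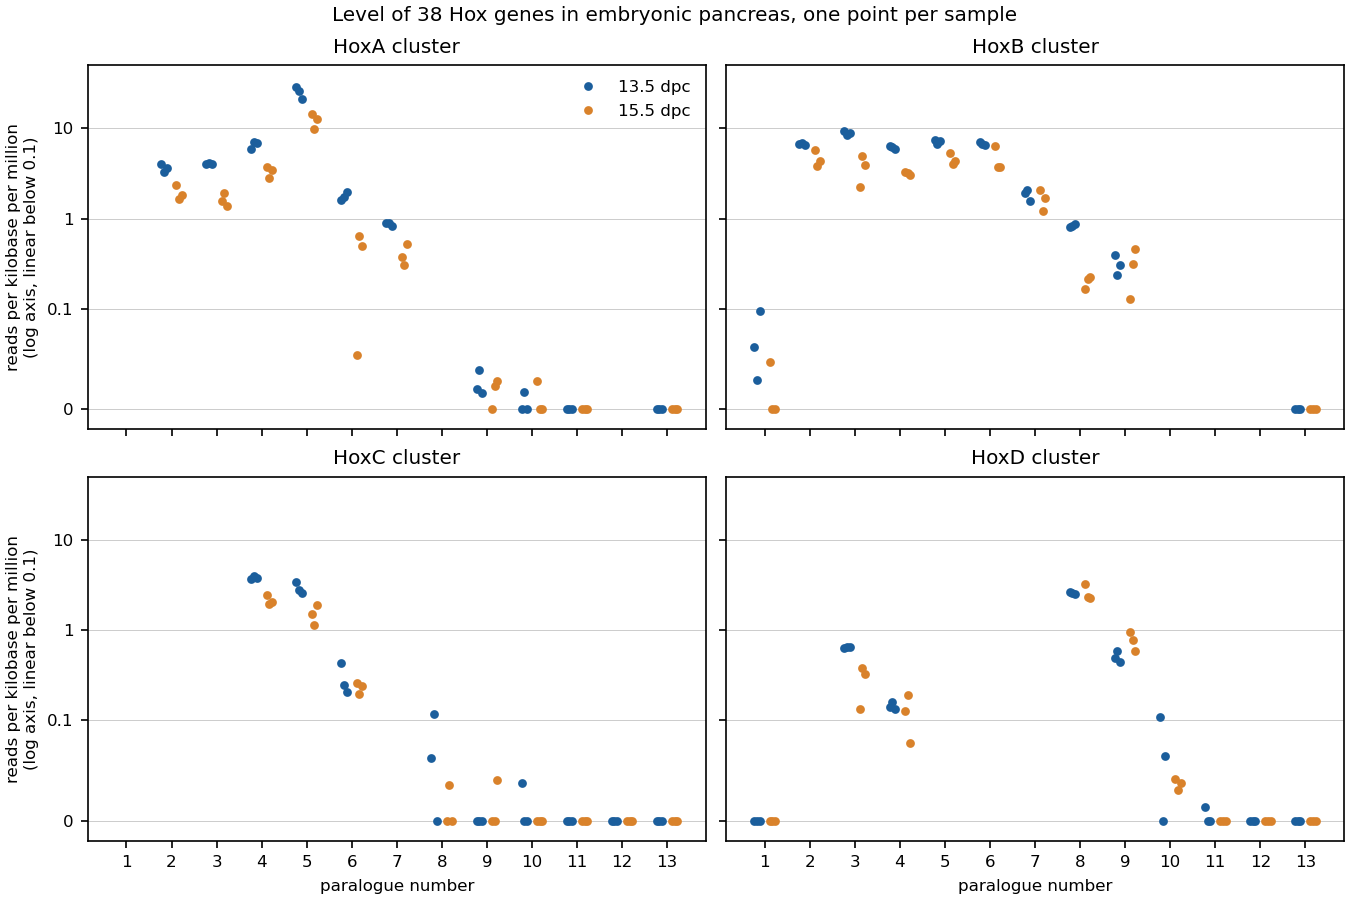
Level of each of the 38 Hox genes against paralogue number, in 4 panels for the clusters, with one point per sample (blue, 13.5 dpc; orange, 15.5 dpc). The vertical axis is RPKM, reads scaled to exon length and library size, on a log axis that is linear below 0.1. Levels of the genes of groups 10 to 13 are 0 or near it in each cluster, as is that of Hoxc8 in HoxC, and Hoxa5 is highest at both stages.

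Levels between genes were compared as RPKM, reads scaled to the exon length in kilobases and to the TMM-scaled library size. Hoxa5 (chr6:52201754-52204587, minus strand), which patterns lung and gut mesenchyme and the neck vertebrae, had the highest level at both stages, 25.2 ± 3.90 RPKM at 13.5 dpc and 12.4 ± 2.37 at 15.5 dpc (SD, n = 3). At 13.5 dpc it was followed by Hoxb3 at 8.88 ± 0.422. Hoxb5 (7.11 ± 0.392), Hoxb6 (6.78 ± 0.244), Hoxb2 (6.75 ± 0.148), Hoxa4 (6.63 ± 0.663) and Hoxb4 (6.21 ± 0.258) came next, and each differed from its neighbour in this order by less than the spread between samples. The highest gene of HoxC was Hoxc4, at 3.81 ± 0.125 and then 2.13 ± 0.271 RPKM. The highest gene of HoxD was Hoxd8, at 2.58 ± 0.0739 and then 2.61 ± 0.542 RPKM.

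Of the 19 Hox genes that passed the filter on low counts given below, 13 held another place in the order of levels at 15.5 dpc than at 13.5 dpc. Hoxa3 moved from place 8, with 4.06 ± 0.0877 RPKM, to place 12, with 1.63 ± 0.294. Hoxd8 stood at place 12 among the 38 genes at 13.5 dpc and at place 8 at 15.5 dpc. Hoxd9 moved from place 18 to 14, with 0.510 ± 0.0749 RPKM at 13.5 dpc and 0.775 ± 0.180 at 15.5 dpc. Hoxb8 moved from place 16 to 20, with 0.840 ± 0.0357 and then 0.202 ± 0.0320 RPKM. At 15.5 dpc Hoxb2 (4.65 ± 0.946), Hoxb6 (4.61 ± 1.49) and Hoxb5 (4.58 ± 0.686) held places 2 to 4 and did not differ beyond their spread, and Hoxb3 came next at 3.70 ± 1.37. Places are uncertain where genes share exon bases on one strand, which was most marked for 4 genes: Hoxb7 and Hoxb8 share 26.2% and 40.4% of their exon bases with each other, and Hoxd3 and Hoxd4 share 29.8% and 67.4%. Hoxa2 (11%), Hoxa3 (7.34%) and Hoxc5 (15.4%) share fewer bases, with genes that have no name. Of 323 genes of the table that lie wholly within same-strand exons of another gene, 0 had 10 or more counts over all samples. Reads from shared bases thus appear to have been given to neither gene, though smaller counts were not checked. Per unshared exon base, a scale chosen after seeing the data, the 13.5 dpc level was 2.53 instead of 1.87 for Hoxb7, 1.41 instead of 0.840 for Hoxb8, 0.920 instead of 0.646 for Hoxd3 and 0.443 instead of 0.144 for Hoxd4. On that scale it was 4.11 instead of 3.65 for Hoxa2, which put it above Hoxc4 (3.81), 4.38 instead of 4.06 for Hoxa3 and 3.44 instead of 2.91 for Hoxc5.

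The stages were compared gene by gene with edgeR's quasi-likelihood test, fitted over all 15578 genes that passed a filter on low counts, and a gene was called when its Benjamini-Hochberg adjusted p over all of them was at or below 0.1, the false discovery limit of the study. Of the 38 Hox genes 19 passed the filter, and 15 of these were called lower at 15.5 dpc. Over all genes tested, 16.5% were called lower and 17.6% higher, so that 48.4% of all calls were lower. With library sizes alone as the scaling, 74.6% of all calls were lower and the median of all genes shifted to -0.22, while 15 Hox genes were called lower and their median was -1.16. No Hox gene was called higher by edgeR or by DESeq2 (0 in each), and 0 had an unadjusted p under 0.05 in that direction. DESeq2 called 15 lower. The median log2 fold change of the Hox genes tested was -0.95, against -0.01 for all genes tested. In the same 15 genes every 15.5 dpc sample lay below every 13.5 dpc sample, which held for 23.6% of all genes tested.

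Hoxa6, Hoxb8 and Hoxd3 had at least 10 counts in every 13.5 dpc sample but not in every 15.5 dpc sample, so they could pass the filter through the earlier stage alone. Among the 15 Hox genes with at least 10 counts in all 6 samples, 12 were called lower, with a median log2 fold change of -0.92. The 14295 genes of the table with such counts had a median of 0.00, and 16% of them were called lower. Under the study's further limits, which ask for over 100 normalised counts at one of the stages and for a fold below 0.6 or above 1.6, 8 Hox genes were lower, against 3.58% of all genes tested.

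**Figure D2:**
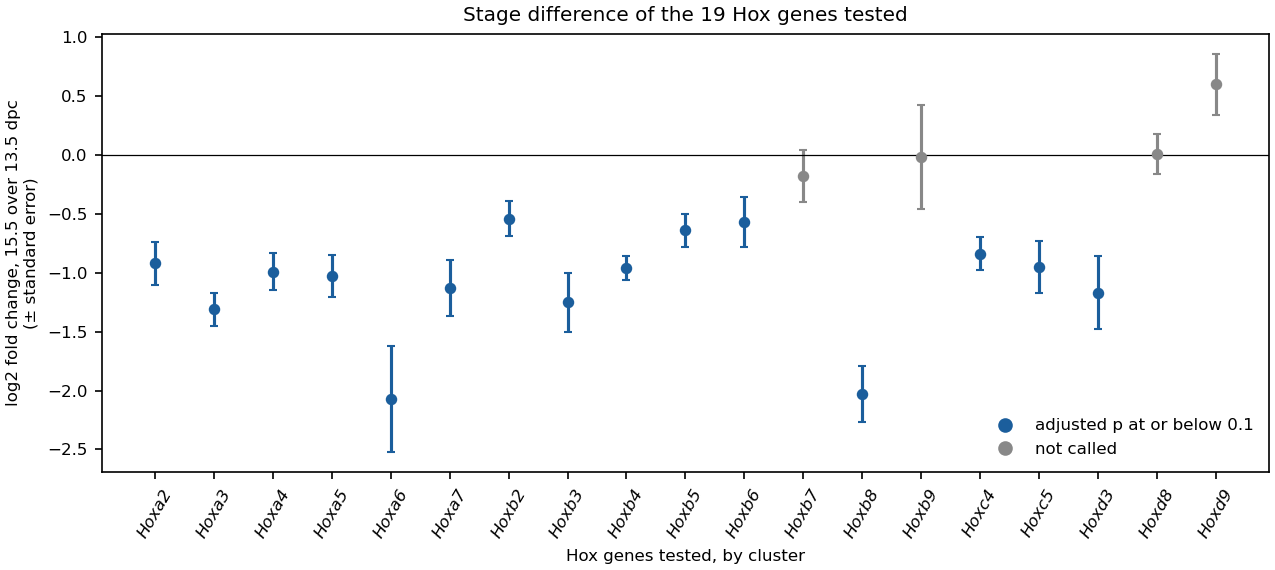
Log2 fold change, 15.5 over 13.5 dpc, of the 19 Hox genes tested, ordered by cluster, with standard errors as bars (n = 3 samples per stage). Blue marks the 15 genes called lower and grey the 4 not called; Hoxa6 and Hoxb8 lie lowest, at -2.07 and -2.03, and Hoxd9 is highest, at 0.60.

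Promoter sequences are shown for 4 genes that stand for the range of stage differences: Hoxa5 because it had the highest level, Hoxb8 because it was among the genes with the largest fold change, and the neighbours Hoxd8 and Hoxd9 because they were not called lower. They come from RefSeq (GRCm38.p6), run 5′ to 3′ on the gene's strand, and cover 250 bases before to 50 bases after a transcript start. They lie at chr6:52204538-52204837 (Hoxa5, minus strand), chr11:96281655-96281954 (Hoxb8, plus strand), chr2:74704365-74704664 (Hoxd8, plus strand) and chr2:74697513-74697812 (Hoxd9, plus strand). Capitals mark matches on either strand to TATAAA (the sequence of the TATA box, at any position), TGATNNAT (bound by PBX with HOX proteins) or TTTATNG (bound by the Cdx factors). TATAAA and TTTATNG can overlap each other.
Hoxa5: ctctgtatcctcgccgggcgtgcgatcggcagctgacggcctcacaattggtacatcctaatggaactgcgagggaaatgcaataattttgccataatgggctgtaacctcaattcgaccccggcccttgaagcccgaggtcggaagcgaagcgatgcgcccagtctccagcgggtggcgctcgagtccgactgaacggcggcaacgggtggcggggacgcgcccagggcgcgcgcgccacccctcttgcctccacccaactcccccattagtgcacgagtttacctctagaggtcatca
Hoxb8: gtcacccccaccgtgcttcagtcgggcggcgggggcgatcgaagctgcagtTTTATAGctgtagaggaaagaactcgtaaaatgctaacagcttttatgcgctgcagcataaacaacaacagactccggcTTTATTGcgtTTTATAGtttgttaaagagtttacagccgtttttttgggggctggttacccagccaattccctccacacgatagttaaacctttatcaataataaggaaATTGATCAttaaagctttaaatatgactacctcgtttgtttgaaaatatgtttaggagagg
Hoxd8: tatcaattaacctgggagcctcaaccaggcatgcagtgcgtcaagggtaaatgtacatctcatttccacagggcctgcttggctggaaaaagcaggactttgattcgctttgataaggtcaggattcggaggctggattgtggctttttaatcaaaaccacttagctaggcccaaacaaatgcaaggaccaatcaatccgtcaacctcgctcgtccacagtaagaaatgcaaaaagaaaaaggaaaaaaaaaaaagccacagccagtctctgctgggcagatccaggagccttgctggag
Hoxd9: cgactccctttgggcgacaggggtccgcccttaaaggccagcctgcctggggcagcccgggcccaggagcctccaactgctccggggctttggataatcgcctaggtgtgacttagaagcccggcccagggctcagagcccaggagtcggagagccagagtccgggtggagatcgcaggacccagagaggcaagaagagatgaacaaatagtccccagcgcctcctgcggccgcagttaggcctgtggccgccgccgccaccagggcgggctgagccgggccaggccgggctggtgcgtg

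Promoters were found for 22 of the 38 genes, 24 sequences in all. TATAAA occurred in 4 of the 24 (16.7%), from Hoxa10, Hoxb8, Hoxd4 and Hoxd13, against 13.6% of 32851 promoters of the same length. TGATNNAT occurred in 4 (16.7%), from Hoxa2, Hoxb1, Hoxb8 and Hoxd11, against 8.85%. TTTATNG occurred in 2 (8.33%), from Hoxb8 and Hoxd4, against 10.9%. Hoxb8 therefore held all 3 motifs, while no match to them occurred in the windows of Hoxa5, Hoxd8 and Hoxd9. The windows also differed in base composition. CpG dinucleotides numbered 29 in the Hoxa5 window, 13 in that of Hoxb8, 6 in that of Hoxd8 and 20 in that of Hoxd9, with a median of 14.5 over the 24 Hox windows (4 to 45) and of 7 over all promoters. GC content was 61.7%, 42.3%, 46.7% and 68.3% in the same order.

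All 6 HoxA genes tested were lower at 15.5 dpc (median log2 fold change -1.08). Hoxa5 had 681, 614 and 498 normalised counts at 13.5 dpc and 346, 234 and 301 at 15.5 dpc. It fell 2.04-fold (log2 fold change -1.03 ± 0.18 SE, adjusted p = 0.00779). Hoxa3, needed for the thymus and parathyroid, had 333, 346 and 333 normalised counts and then 131, 162 and 113. It fell 2.48-fold (-1.31 ± 0.14, adjusted p = 0.00152), and the stages lay far apart relative to the spread within either. Hoxa4, which patterns the neck vertebrae, had 118, 144 and 138 and then 74.7, 57.3 and 70.5 (-0.99 ± 0.16, adjusted p = 0.00604). Hoxa2, the selector gene of the second pharyngeal arch, had 124, 101 and 111 and then 72.0, 50.1 and 56.7 (-0.92 ± 0.18, adjusted p = 0.0120). No sample of the later stage reached the range of the earlier one for any of these 4 genes.

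Hoxa6 and Hoxa7, which pattern the thoracic region, were lower in level than their anterior neighbours. Hoxa6 had 45, 51 and 70 raw counts at 13.5 dpc and 1, 16 and 10 at 15.5 dpc, that is 41.0, 43.7 and 50.3 and then 1.38, 16.4 and 12.6 normalised counts. It was 4.20-fold lower (-2.07 ± 0.45, adjusted p = 0.0183), close to the change of Hoxb8 (-2.03), and its smallest value came from the first 15.5 dpc sample. Without that sample the log2 fold change was -1.62 (adjusted p = 0.00199), against -1.92 for Hoxb8, and without the second 15.5 dpc sample it was -2.61 (adjusted p = 0.00318). Hoxa7 had 32.8, 32.6 and 30.2 normalised counts and then 13.8, 11.2 and 18.9 (-1.13 ± 0.24, adjusted p = 0.0166). Antisense genes overlap 25% of the exon bases of Hoxa3 and 20.4% of those of Hoxa7. The study does not state the strand setting of its counting. Of 149 genes covered entirely by opposite-strand exons 29 had at least 10 counts, up to 8269. No gene covered by same-strand exons had as many as 10, so reads were counted by strand and those of overlapping antisense genes were kept apart.

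In HoxB 6 of 8 genes tested were called lower, with a median log2 fold change of -0.60. Hoxb3, expressed in the hindbrain and pharyngeal arches, had 353, 321 and 339 normalised counts at 13.5 dpc and 84.4, 187 and 150 at 15.5 dpc. It fell 2.38-fold (-1.25 ± 0.25, adjusted p = 0.0133). Its lowest value came from the first 15.5 dpc sample, and without that sample the log2 fold change was -0.99 (adjusted p = 0.000538). Hoxb4, known for its effect on blood stem cell expansion, had 336, 330 and 310 and then 173, 169 and 159. Its change had the smallest standard error of the Hox genes tested, 0.10 (-0.96, adjusted p = 0.00141), and the samples of each stage lay close together. Hoxb5, which acts in enteric neural crest, had 262, 237 and 259 and then 190, 142 and 156 (-0.64 ± 0.14, adjusted p = 0.0173). Hoxb2, which controls facial motor neuron identity, had 283, 287 and 275 and then 238, 162 and 183 (-0.54 ± 0.15, adjusted p = 0.0429). The call of Hoxb2 was lost in 4 of the 6 fits that left out 1 sample, with adjusted p up to 0.150. Its change was -0.71 (adjusted p = 0.00178) without the first 15.5 dpc sample and -0.41 (adjusted p = 0.0344) without the second.

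Toward the posterior end of HoxB the genes differed among themselves. Hoxb6 had 185, 177 and 172 normalised counts and then 166, 98.2 and 98.2. It was called only narrowly (-0.57 ± 0.21, adjusted p = 0.0947), and its first 15.5 dpc sample lay just below the 13.5 dpc range. Without that sample its change was -0.85 (adjusted p = 0.00135), and without the second 15.5 dpc sample it was -0.42 (adjusted p = 0.112). Each of the 5 fits that left out another sample than the first lost the call, with adjusted p up to 0.266. Hoxb7 had 100, 107 and 81.9 and then 107, 63.4 and 86.9, so the stages overlapped (-0.18 ± 0.22, adjusted p = 0.556). Hoxb8 (chr11:96281905-96285325, plus strand), which acts in the spinal cord and in microglia, had 30, 32 and 41 raw counts and then 4, 7 and 6, that is 27.3, 27.4 and 29.5 and then 5.54, 7.16 and 7.56 normalised counts. It fell 4.08-fold (-2.03 ± 0.24, adjusted p = 0.00201), and its change kept that size in all 6 fits that left out 1 sample, from -2.10 to -1.92. Hoxb9, the posterior gene of the cluster still detected, had 12.8, 7.72 and 10.1 and then 4.15, 10.2 and 15.1, with wide overlap (-0.02 ± 0.44, adjusted p = 0.977, 95% interval -1.05 to 1.00). The difference in fold change between Hoxb7 and Hoxb8, which lie side by side, was not tested.

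The called HoxC genes were the cervical genes Hoxc4 and Hoxc5, the only 2 tested in that cluster. Hoxc4 had 120, 128 and 121 normalised counts at 13.5 dpc and 78.9, 62.4 and 65.5 at 15.5 dpc (-0.84 ± 0.14, adjusted p = 0.00727). Hoxc5 had 125, 103 and 94.8 and then 55.4, 41.9 and 70.5 (-0.95 ± 0.22, adjusted p = 0.0216). The stages did not overlap for either gene. Hoxc6 had 15, 9 and 9 raw counts and then 6, 6 and 6, and Hoxc8 had 2, 4 and 0 and then 0, 1 and 0. Both were too low to be tested.

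HoxD was the one cluster in which most genes tested were not called. Hoxd8 (chr2:74704615-74707933, plus strand), a gene of the trunk, had 92.0, 89.2 and 86.9 normalised counts at 13.5 dpc and 112, 79.8 and 79.3 at 15.5 dpc. Its stages overlapped, and the log2 fold change was 0.01 ± 0.17 with a 95% interval of -0.39 to 0.41 (adjusted p = 0.972). Its highest value came from the first 15.5 dpc sample, without which the change was -0.17 (adjusted p = 0.439). Without the second 15.5 dpc sample it was 0.11 (adjusted p = 0.645). Hoxd9 (chr2:74697680-74700208, plus strand), known from limb and lumbar patterning, had 13.7, 16.3 and 12.2 and then 26.3, 21.5 and 16.4. Each 15.5 dpc sample lay above each 13.5 dpc sample, the lowest of them by little, and the change was not called (0.60 ± 0.26, unadjusted p = 0.0550, adjusted p = 0.136). Without the first 15.5 dpc sample, which held the highest value, the change was 0.45 (adjusted p = 0.308), and without the second it was 0.61 (adjusted p = 0.162). Its raw counts were 15, 19 and 17 and then 19, 21 and 13.

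Hoxd3, which patterns the first neck vertebrae, was the HoxD gene called lower. It had 46.5, 48.0 and 47.4 normalised counts at 13.5 dpc and 9.69, 27.6 and 23.9 at 15.5 dpc, with no overlap (-1.17 ± 0.31, adjusted p = 0.0332). Without the first 15.5 dpc sample its change was -0.86 (adjusted p = 0.0147), and without the second it was -1.45 (adjusted p = 0.00723). Leaving out any 1 of the 13.5 dpc samples took the call away (adjusted p = 0.104, 0.108 and 0.110). Hoxd4 had 5, 6 and 6 raw counts and then 3, 6 and 2, and Hoxd10 had 4, 0 and 3 and then 1, 1 and 1. Hoxb1, the anterior gene of HoxB, had 2, 1 and 4 and then 1, 0 and 0. None of these 3 genes was tested.

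**Figure D3:**
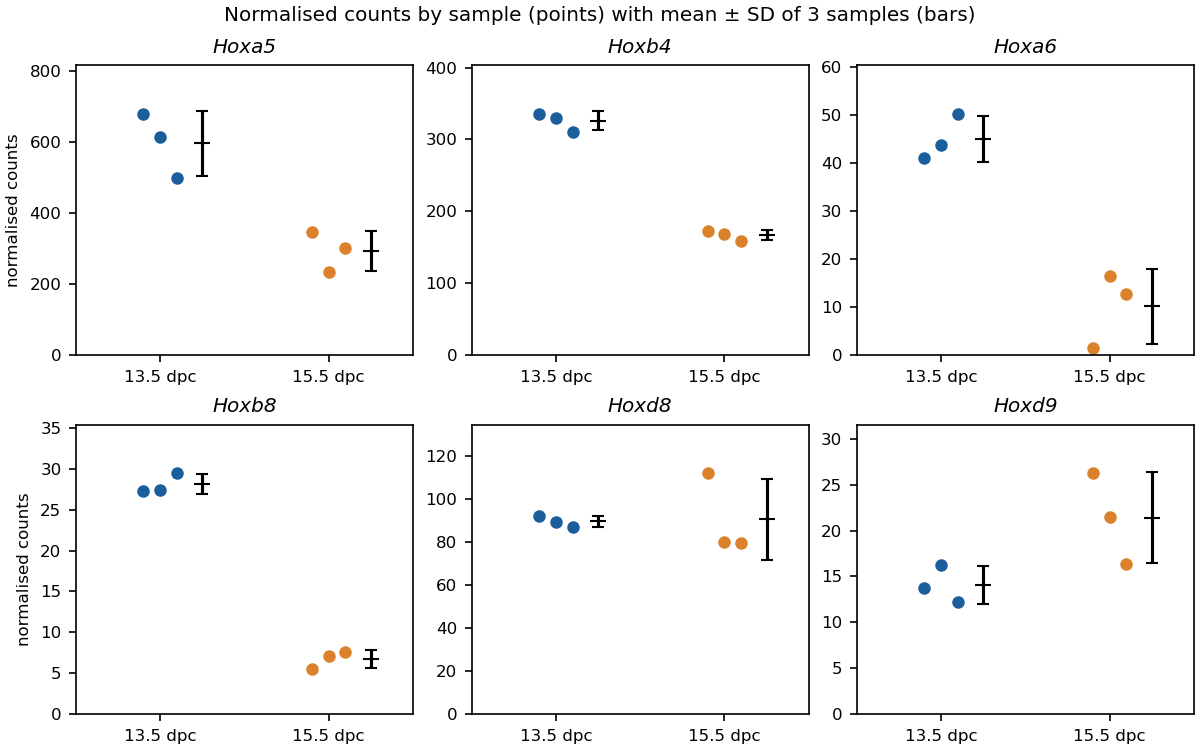
Normalised counts of 6 Hox genes in each sample (points; blue, 13.5 dpc; orange, 15.5 dpc), with the mean and SD of 3 samples beside them as bars. The stages are apart for Hoxa5, Hoxb4, Hoxa6 and Hoxb8, overlap for Hoxd8, and run the other way for Hoxd9, which was not called.

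The clusters thus made up different shares of all Hox counts at the 2 stages. HoxA supplied 40.1%, 40.4% and 38.5% of Hox counts at 13.5 dpc and 33.6%, 32.9% and 33.8% at 15.5 dpc. HoxD supplied 4.87%, 4.99% and 5.07% and then 8.06%, 8.41% and 7.27%. HoxB went from 47.7% ± 1.15 to 51% ± 0.747 and HoxC was at 7.63% ± 0.254 and 7.63% ± 0.831 (SD, n = 3). In summed normalised counts HoxA fell from a mean of 1258 to 582, HoxB from 1512 to 887 and HoxC from 242 to 133, while HoxD was at 158 and 138, with ranges of 153 to 161 and 123 to 154. The HoxA, HoxB and HoxD shares did not overlap between the stages and the HoxC shares did.

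The copies within a paralogue group were called alike in some groups and not in others. All 3 genes of group 3 were lower, with log2 fold changes of -1.31 to -1.17, as were the 3 genes tested of group 4 (-0.99 to -0.84) and the 3 genes of group 5 (-1.03 to -0.64). In group 6, Hoxa6 and Hoxb6 were both lower but by -2.07 and -0.57, and in group 8 Hoxb8 was lower by 4.08-fold while Hoxd8 was not called. In group 2, Hoxa2 (-0.92) and Hoxb2 (-0.54) were both lower. In group 7, Hoxa7 was lower (-1.13) and Hoxb7 was not called (-0.18), and in group 9 neither Hoxb9 (-0.02) nor Hoxd9 (0.60) was called. Differences between copies were not tested. The median log2 fold change was -1.17 over the 5 genes tested in groups 1 to 3, -0.95 over the 12 in groups 4 to 8 and 0.29 over the 2 in groups 9 to 13. Across the 19 genes, which share libraries and are not independent, Spearman's rho between fold change and paralogue number was 0.34.

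Between the outermost members of the clusters lay exons of 31 genes of the table that are not annotated as protein-coding, 21 annotated non-coding genes and 10 IDs with no matched name or biotype. Of these 18 had 0 counts in all samples, all 10 unmatched IDs among them, and 6 were tested. The exons of 11 of the 18 lay wholly within same-strand exons of other genes. Reads there appear to have been given to neither gene, so their 0 says nothing of their expression. Hoxb3os, antisense to Hoxb3 and Hoxb2, had 89.3, 74.6 and 75.4 normalised counts at 13.5 dpc and 40.1, 34.8 and 31.5 at 15.5 dpc (-1.17 ± 0.17, adjusted p = 0.00425). It overlaps 49.4% of the exon bases of Hoxb2 and 37.9% of those of Hoxb3, on the opposite strand, whose reads were counted apart. The call of Hoxb3os held in all 6 fits that left out 1 sample, from -1.25 to -1.08. Hoxb5os had 35.5, 18.9 and 28.7 and then 16.6, 10.2 and 17.6 (-0.92 ± 0.33, adjusted p = 0.0852), and 4 of these 6 fits lost its call (adjusted p up to 0.240). Both were called lower, and the processed pseudogene Gm11539, whose counts are uncertain because reads of a near-identical parent gene can fall on it, was called higher (0.77 ± 0.23, adjusted p = 0.0473), a call also lost in 4 of the 6 fits (adjusted p up to 0.158). In HoxA, Hoxaas2 (-0.70, adjusted p = 0.134), Gm15050 (-0.57, adjusted p = 0.263) and Hoxaas3 (-0.62, adjusted p = 0.317) were not called. Hoxaas3 had 40.1, 45.4 and 40.9 normalised counts and then 52.6, 18.4 and 13.9, so the stages overlapped through the first 15.5 dpc sample alone. Without that sample the change was -1.36 (adjusted p = 0.00401). It was -0.36 (adjusted p = 0.499) without the second 15.5 dpc sample and -0.30 (adjusted p = 0.653) without the third. Gm15050 was at -0.92 (adjusted p = 0.0767) without the first 15.5 dpc sample and at -0.21 (adjusted p = 0.553) without the second. Hoxaas2 was at -0.97 (adjusted p = 0.0381) without the second 15.5 dpc sample and at -0.43 (adjusted p = 0.314) without the third. The long non-coding RNA Hotair of HoxC had 0 counts in every sample. So had the 6 microRNA hairpin genes in the clusters, of which 5 lay wholly within same-strand exons, where reads appear to have been given to neither gene.

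The TALE cofactors, with which Hox proteins bind DNA, mostly fell too. Of 9 genes tested 7 were called lower, against 16.5% of all genes tested, and the other 2, Pbx3 (-0.12, adjusted p = 0.345) and Pknox1 (-0.06, adjusted p = 0.606), were not. Meis1 had 2319, 2130 and 2143 normalised counts at 13.5 dpc and 965, 1421 and 1169 at 15.5 dpc (-0.89 ± 0.14, adjusted p = 0.00618). Its stages did not overlap. Also called lower were Pknox2 (-1.05), Pbx4 (-0.96), Pbx2 (-0.62), Meis3 (-0.58) and Meis2 (-0.56). The list's median log2 fold change was -0.62 and its summed level at 15.5 dpc was 0.657 times that at 13.5 dpc.

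Of 28 Polycomb and trithorax genes, which keep Hox genes silent or active, 6 were called lower, 3 higher and 19 were not called, against 16.5% lower and 17.6% higher over all genes tested, with a median log2 fold change of -0.07. The 4 with the lowest p were Cbx2 (-0.84, adjusted p = 0.00506) and Phc1 (-0.66, adjusted p = 0.0139) of the Polycomb complex PRC1, its catalytic subunit Rnf2 (-0.33, adjusted p = 0.0284), and the histone-binding Rbbp7, which was higher (0.49, adjusted p = 0.0187). Of 13 upstream regulators of Hox genes 7 were tested, 4 were lower and 1 higher, against the same shares over all genes tested. The lower ones were Cyp26b1, an enzyme that breaks down retinoic acid (-1.70, adjusted p = 0.00163), the signal Gdf11 (-1.25, adjusted p = 0.00273) and the retinoic acid receptors Rarb (-0.98, adjusted p = 0.00611) and Rara (-0.44, adjusted p = 0.0112). Aldh1a2, which makes retinoic acid, and Cdx2, an activator of posterior Hox genes, were picked after their values were seen. Aldh1a2 was at 722, 703 and 684 and then 702, 628 and 648 normalised counts (-0.09, adjusted p = 0.469). Cdx2 was at 0.857 to 4.56 normalised counts at 13.5 dpc and 1.38 to 5.04 at 15.5 dpc. Of the other homeobox genes related to the clusters 4 of 8 were tested, 0 were called by edgeR or by DESeq2, and 1 had an unadjusted p under 0.05 (Meox2, 0.48, adjusted p = 0.110). Gsx2 and Evx2 of that list had 0 counts.

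Markers of other cell types also differed between the stages, to different extents. The counts called in each list stand beside 16.5% lower and 17.6% higher over all genes tested. Summed over 7 markers of spleen and stomach mesenchyme, tissues that border the early pancreas, normalised counts were 4221 to 4455 at 13.5 dpc and 2340 to 2457 at 15.5 dpc, a ratio of 0.557. Of these markers 5 were called lower, among them Nkx3-2 (-1.70, adjusted p = 0.00162) and the spleen gene Tlx1 (-1.22, adjusted p = 0.00573). Per 1000 counts of that list the Hox genes had 715 to 752 at 13.5 dpc and 658 to 798 at 15.5 dpc, which overlap. The 16 general mesenchymal markers summed to 131871 to 148896 and then 98332 to 146511 (126828 and 146511 without the first 15.5 dpc sample), with 7 lower, 3 higher and 6 not called. Col1a1, Col1a2 and Col3a1, none of them called, made up 74.4% to 80% of that sum. The 13 markers without these 3 collagen genes, a sum chosen after seeing the data, had 28546 to 29758 and then 25222 to 29501. Their lowest p values were those of Tcf21 (-1.01, adjusted p = 0.00189), Pdgfra (-1.33, adjusted p = 0.00605), Dcn, which was higher (0.61, adjusted p = 0.0127), and Zeb1 (-0.89, adjusted p = 0.0153). Per 1000 mesenchymal counts the Hox genes had 20.3 to 25.1 and then 11 to 19.4, so that the stages did not overlap. The highest 15.5 dpc value came from the first sample, and the others had 11 and 13.4. Per 1000 counts of the 13 markers without these 3 collagen genes, among which Col6a1 stayed, the Hox genes had 101 to 116 and then 54.8 to 75.6.

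Markers of the epithelium went the other way. The 12 epithelial markers summed to 35702 to 36968 normalised counts at 13.5 dpc and 47005 to 69456 at 15.5 dpc (47005 and 53483 without the first 15.5 dpc sample), with 7 called higher, and per 1000 of them the Hox genes had 82.5 to 92.8 and then 27.4 to 34.4. The 12 neural and glial markers summed to 4445 to 4507 and then 3486 to 3983, with 8 lower and 1 higher. The 2 most abundant of them moved in opposite directions. Hand2, also a gene of mesenchyme, had 2143, 2078 and 2074 and then 942, 1034 and 1063 (-1.05, adjusted p = 0.000706), and the receptor gene Ret had 685, 718 and 773 and then 1265, 1766 and 1556 (1.08, adjusted p = 0.00242). In sums chosen after seeing the data, the 11 markers without Hand2 had 2302 to 2433 and then 2544 to 2949, and the 10 without Hand2 and Ret had 1616 to 1680 and then 1182 to 1279. The 7 mesothelial markers (2 lower, 1 higher) summed to 0.938 times, the 8 endothelial markers (1 higher) to 1.06 times and the 8 kidney and urogenital markers (4 tested, 1 lower) to 0.771 times the 13.5 dpc level. The 8 blood and immune markers summed to 0.136 times, which rested on the embryonic globins Hbb-y (-4.69, adjusted p = 5.83e-05) and Hba-x (-3.61, adjusted p = 0.000257). Of 6 intestinal markers 3 were tested and 2 were higher, and Cdx1, Cdx2 and Fabp2 were at or near 0. The part of these cell types in the Hox result was not tested.

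**Figure D4:**
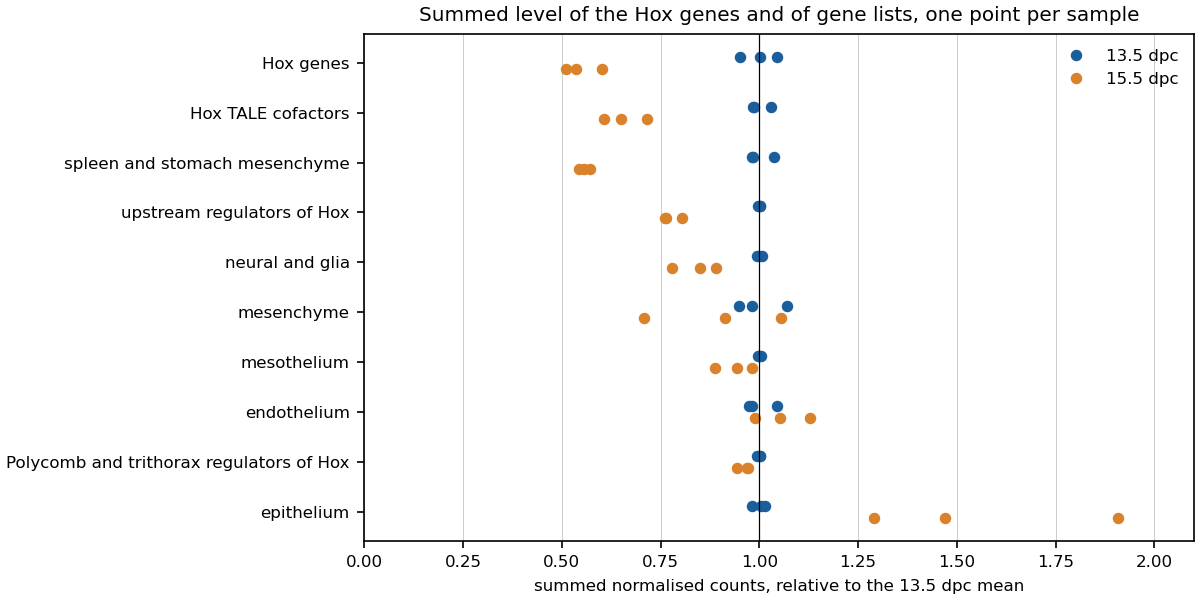
Summed normalised counts of the Hox genes and of 9 gene lists in each sample, relative to the mean of the 13.5 dpc samples (vertical line at 1; blue, 13.5 dpc; orange, 15.5 dpc). The Hox genes, the TALE cofactors and the spleen and stomach mesenchyme markers lie between 0.510 and 0.715 at 15.5 dpc, while the epithelial markers lie above 1.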

How the data were processed

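Whole pancreata of wild-type C57/Bl6J embryos were pooled, up to 3 per sample, with 3 independent samples per stage, so p-values measure the spread between such pools. Poly(A) RNA of integrity 8 or more was sequenced from strand-specific libraries. The authors aligned single-end reads to mm10 with GSNAP and Ensembl 69 splice sites, counted uniquely aligned reads per gene with featureCounts 1.4.6, and deposited these raw counts, which were used unchanged. The strand setting of the counting is not given in the sources used here.

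Of 37224 gene IDs 35449 were given symbols by Ensembl ID, covering at least 99.4% of counts in each sample. Of the Hox genes 37 were matched by ID and Hoxd4 by its exact coordinates. Another Hox gene and some genes of the lists are not reported here by name. The members and gene lists were chosen with earlier results of these data known, so no list is given a test of its own. All 6 samples entered 1 fit without covariates in edgeR 4.0.16 (R 4.3.3) with TMM scaling, filterByExpr and quasi-likelihood tests. The filter kept 15578 genes, 41.8% of the IDs, and p-values were adjusted over all of them. DESeq2 1.42.0, other scalings, filters, thresholds, a length correction and leaving out each sample were alternatives. Standard errors are the fold change divided by the square root of the F statistic, and 95% intervals use the fit's degrees of freedom, 7.4. On simulated counts with 15426 genes tested, 91 of 100 genes changed by 1 on the log2 scale and 100 of 100 changed by 1.5 were recovered, with 21 false calls.

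Genes named with full values were those called, the highest of each cluster, groups 5 and 6, posterior genes over 3 counts, the called TALE cofactors and up to 4 genes of each other list with the lowest p. Intervals and limits cover the spread between samples and counting error only. The numbers of the samples did not pair them across stages.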

Additional observations from a re-analysis of the deposited data

How the results depend on the processing

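The count of Hox genes called lower was 14 or 15 with size factors by library size only, DESeq2 size factors or the upper quartile, with DESeq2, with no filter, with genes above 1% of counts taken out, with the length trend removed and at an adjusted p of 0.05. It was 12 among genes with at least 10 counts in every sample, where fewer genes were tested, 12 to 15 when 1 sample was left out, and 8 with the study's thresholds, which drop genes of low level or small change. The median log2 fold change was -1.16 with library size only, against a median of all genes of -0.22, and -0.97 to -0.79 when 1 sample was left out, -0.79 without the second 15.5 dpc sample. It stayed between -0.98 and -0.93 elsewhere. With 10 counts in at least 3 samples as the limit, 19 genes were detected.

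Sample numbers did not deviate together across stages (correlations 0.22, -0.22 and 0.038). With the replicate block 15 Hox genes were lower, with a median of -0.95, and 4520 genes were called over the table instead of 5303.

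Of 281 comparisons of single Hox genes with an alternative, 257 kept direction and call, 13 lost the call and 11 changed sign. For 13 genes each comparison made kept both, though Hoxa6 and Hoxb8 were not tested with 10 counts in every sample. The study's thresholds and the adjusted p of 0.05 are not among these comparisons, and of the 13 genes Hoxa6, Hoxa7, Hoxb5 and Hoxb8 were called lower but not under the study's thresholds. Hoxb2 was not called without any one of the 13.5 dpc samples or without the third 15.5 dpc sample (adjusted p = 0.123 to 0.150), and Hoxb6 was not called with DESeq2 size factors (adjusted p = 0.105) or in 5 of the 6 fits that left out a sample (up to 0.266). The sign changes were in genes that were not called: Hoxd8 at -0.21 with library size only, -0.023 with the upper quartile, -0.016 with no filter, -0.0038 with 10 counts in every sample, -0.0018 with the replicate block, -0.037 with the length trend removed, and -0.17 to 0.11 when 1 sample was left out; Hoxb7 at -0.37 to 0.02 and Hoxb9 at -0.42 to 0.30 when 1 sample was left out. The cause was not tested. Over all genes, 2498 to 9089 were called when 1 sample was left out, 9089 without the second 15.5 dpc sample. Depth limits the Hox genes that did not pass the filter on low counts, which were not tested.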
